A study of Mus musculus with 23 samples.

Results

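The transcripts described here are known to the array by the number of a mouse cDNA clone, written as AK and digits, and by no gene symbol. They were chosen as every row of the deposited log2 table whose identifier is AK followed by digits and whose gene name in the scanner files is that same identifier. The array carries 2210 AK identifiers, and 211 of them have no symbol. Of these 211, 168 passed the filter on low signal and are among the 31395 rows of the table, and 43 did not. Of the 43 left out, 35 were well above background on none of the 23 arrays and 8 on 1 array each. The scanner software's test of a spot against its local background defines "well above background" here.

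From female mice of the C57BL/6 strain 3 pieces of brain were taken, the striatum (ST), the frontal cortex (FC) and the hypothalamus (HT), and the RNA of each was put on its own one-colour Agilent array. The labels give an age of 5 weeks, which the paper states for the beginning of the experiments, so the mice were older at dissection. The standard chow group (SC, titled L and a number in the labels) ate chow for 8 weeks. The other group (CM, titled O and a number) chose freely between chow and a chocolate mixture for as long. An 11-day test battery and dissection followed in both groups. There are 4 arrays for each diet and region and 3 for CM FC, numbered by mouse as 52, 54, 56 and 58 within each diet, with CM FC lacking mouse 52, and this small number of arrays limits the precision of the values.

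Large cDNA sequencing projects, RIKEN's being the best known in the mouse, cloned and sequenced RNA from many tissues without first asking which gene each clone came from. Many of the clones later proved to be the far ends of known messages, such as long or alternative ends of a gene's last exon, and others came from introns, from antisense strands, from repeats or from long RNAs that code for no protein. A probe to such a clone can therefore report on a stretch of a known gene that its named probe does not cover, or on RNA of unknown use. The brain is rich in such RNA, since many neuronal messages carry long ends after the coding sequence.

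The 60 base probes of 6 transcripts on which the results turn are printed 5′ to 3′, with AATAAA, the signal before the end of most messages, and runs of at least 6 A or 6 T in capitals. The first 5 differed between brain regions, and AK129341 between diets in FC and, on SC, between regions.
AK042354: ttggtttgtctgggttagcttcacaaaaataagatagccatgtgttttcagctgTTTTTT
AK138907: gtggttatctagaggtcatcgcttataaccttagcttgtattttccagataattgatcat
AK040646: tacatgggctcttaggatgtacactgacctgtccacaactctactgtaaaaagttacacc
AK008770: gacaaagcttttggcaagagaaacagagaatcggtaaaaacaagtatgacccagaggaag
AK137313: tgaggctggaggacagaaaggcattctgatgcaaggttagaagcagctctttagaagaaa
AK129341: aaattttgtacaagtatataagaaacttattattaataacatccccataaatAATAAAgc

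In the mm9 build, which the array annotation uses, AK042354 lies at chr12:50495023-50495082 on the plus strand and AK138907 at chr8:71690783-71690842 on the minus strand. AK040646 lies at chr1:130071277-130071336 on the plus strand, AK008770 at chr2:112495554-112495613 on the minus strand and AK137313 at chr3:13581559-13581618 on the plus strand. AK129341 lies at chr9:8076478-8076537 on the minus strand.

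Most of the unnamed transcripts were present in all 3 regions. Of the 168, 120 (71.4%) were well above background on all 23 arrays, beside 74.9% of all rows, 42 were so on some arrays and 6 on none. The array description names a RIKEN library for 163 of them, from 67 libraries: 7 came from cortex, 3 from striatum, 1 from hypothalamus, 39 from other nervous tissue and 113 from other tissues. The product is given as unclassifiable for 108, as a hypothetical protein for 27, as a hypothetical protein with a domain for 7, as like a known protein for 17 and as a product of a mobile element for 4. The 5 without a library are AK129341, AK195427, AK189234, AK178559 and AK203298, named here after their values were seen. A position is given for 167, with 84 on the plus strand and 83 on the minus strand.

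Marker genes of the tissues were read first, to check the labels. Of 9 measured striatal markers, 9 were higher in ST than in the other regions on both diets, and of 8 cortical markers, 7 were higher in FC on SC and 8 on CM. The labels call the HT samples thalamic region, while the treatment protocol names the hypothalamus. All 8 thalamic markers were higher in HT on both diets, and of 13 hypothalamic markers 5 were higher in HT on SC and 10 on CM, with Npy lower on both, so the HT arrays carry markers of both thalamus and hypothalamus. In all of these counts, higher means a limma adjusted p under 0.01 and at least a 2-fold difference from the mean of the other regions.

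Some arrays stood apart from their group in these lists. The mean log2 level of the 4 olfactory bulb markers was 11.74 in SC FC mouse 54, with Doc2g brightest, and between 6.04 and 7.03 in the other FC arrays. The mean of the 7 choroid plexus markers was 12.85 in CM ST mouse 58, with Ttr brightest, and between 7.82 and 8.85 in the other CM ST arrays, and 4 of the 7 were called higher in ST on CM. SC ST mouse 52 had the highest mean of hypothalamic markers in ST (10.82, beside 7.47 to 9.11 in the other 7 ST arrays), and SC ST mouse 54 the highest mean of cortical markers (9.94). SC HT mouse 54 had a striatal mean of 11.71, beside 10.29 to 10.62 in the other SC HT arrays, and a hypothalamic mean of 9.26, beside 10.32 to 12.37. The mean of the striatal markers in FC was 11.80, 12.35 and 12.25 in SC mice 54, 56 and 58 and 12.28 in CM mouse 58, and 10.09, 10.03 and 10.38 in SC mouse 52 and CM mice 54 and 56. Of 5 oligodendrocyte markers, 4 were called lower in FC and 1 lower in HT on CM, and none of the 3 red blood cell or 4 olfactory bulb markers was called in any of the 9 comparisons by limma. Of the 2 pituitary markers, Lhb was called higher on CM than on SC in FC, the one marker past both thresholds between diets, and in 4 region comparisons. Mag and Cnp of the oligodendrocytes were lower on CM in FC by less than 2-fold (-0.92 and -0.91, limma adjusted p = 0.000778 and 0.000538), and the median difference there was -1.08 for the striatal and -1.59 for the olfactory bulb markers. The part of these arrays in the results was not tested beyond leaving each out. Counts without several of them stand beside the results below, and the ranges over all arrays are given after the report.

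The arrays were hybridised on 3 slides, over which the groups are unevenly spread. Slide 1 held SC FC of mice 54, 56 and 58, SC ST of mouse 52 and all CM ST arrays. Slide 2 held SC FC of mouse 52, SC ST of mice 54 and 56, SC HT of mouse 58 and all CM HT arrays, and slide 3 held the other 3 SC HT arrays, SC ST of mouse 58 and all CM FC arrays. No slide holds both diets of FC. Each CM group lies whole on a slide of its own, so on CM no slide holds 2 regions, and the region calls on CM, with the counts on both diets that need them, cannot be told apart from the slide within a slide. Of the 168 transcripts, 10 (5.95%) were lower on all 8 arrays of slide 1 than on any other array, as were 5.21% of all rows. AK139836 was higher on all slide 1 arrays (background 0.723%), AK078025 and AK145039 were higher on all slide 3 arrays (background 1.59%), and none was lower on all slide 3 arrays (background 0.0159%) or higher or lower on all slide 2 arrays (background 0.00956% and 0.00319%), counts read from the values with no test.

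A low level in HT was no more frequent among the unnamed transcripts than among all rows. On both diets, 4 of the 168 (2.38%) were lower in HT than in the mean of FC and ST, beside 2.83% of all rows, and 1, AK087888, was higher (background 2.09%). The 4 are AK042354, AK138907, AK040646 and AK043982, and their HT arrays all lay below all their FC and ST arrays on either diet. A count here needs a limma adjusted p under 0.01 and at least a 2-fold difference on SC and again on CM. SC HT mouse 54, the array with more striatal markers, is the highest SC HT array for all 4, and without it the HT count was 5, with 4 of the same transcripts. The HT count stayed 5 in the fits without SC FC mouse 54, without CM ST mouse 58 and without SC ST mouse 52, with the same 5 transcripts. In bulk tissue, fewer cells of a type that makes a transcript and less of the transcript per cell cannot be told apart.

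AK042354 was cloned from a neonate thymus library. In FC, AK042354 had log2 levels of 6.94, 7.10, 7.32 and 6.69 in SC mice 52, 54, 56 and 58 and of 6.97, 6.83 and 7.11 in CM mice 54, 56 and 58. In ST, its log2 levels were 7.14, 7.33, 7.29 and 7.08 in the SC mice and 7.16, 7.17, 7.09 and 7.21 in the CM mice, in the same order of mice. In HT, its log2 levels were 4.58, 5.39, 4.64 and 4.66 on SC and 4.85, 3.87, 4.27 and 5.12 on CM. FC and ST overlap in a narrow band, and every HT array lies below that band, with the SC HT array of mouse 54 the highest of its 4. In HT, 2 of 4 SC arrays and 1 of 4 CM arrays were well above background, so its HT level is a bound: it was at least 4.9-fold lower on SC and at least 5.74-fold lower on CM. The fitted log2 differences, HT minus the mean of FC and ST, were -2.34 on SC (SE 0.245, adjusted p = 3.99e-07) and -2.63 on CM (SE 0.169, adjusted p = 7.88e-11). They were -2.31 (adjusted p = 0.00192) and -2.60 (adjusted p = 2.37e-05) with the slide as a term.

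AK138907 also came from a neonate thymus library, with an unclassifiable product, and its nearest named probe is that of Lzts1, a leucine zipper protein of the synapse, 31204 bases away on the same strand. In FC, its log2 levels were 7.53, 8.37, 7.73 and 8.10 in the SC mice and 7.83, 7.56 and 7.64 in the CM mice. In ST, they were 7.77, 7.69, 7.49 and 7.48 on SC and 7.87, 8.11, 8.11 and 8.08 on CM. In HT, they were 5.98, 6.53, 5.78 and 5.53 on SC and 5.70, 5.82, 5.48 and 6.27 on CM. All HT arrays are low, FC and ST overlap on SC but not on CM, where ST is higher, and all 23 arrays are well above background. AK138907 differed in HT by -1.81 on SC (SE 0.193, adjusted p = 5.41e-07) and by -2.08 on CM (SE 0.133, adjusted p = 8.01e-11). These were -1.76 and -1.77 with the slide as a term. Lzts1 differed by -2.29 and -3.11.

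AK040646 was cloned from aorta and vein, and its nearest named probe, 62976 bases away on the same strand, is that of R3hdm1, a gene with an R3H domain, named although it lies past the 50 kb limit used for neighbours and chosen after its values were seen. AK040646 had log2 levels of 11.27, 11.33, 11.58 and 10.94 in SC FC and of 11.56, 11.31 and 11.35 in CM FC. The ST arrays gave 10.73, 11.00, 10.07 and 10.07 on SC and 10.63, 10.73, 10.67 and 10.42 on CM. The HT arrays gave 9.29, 9.88, 9.71 and 9.38 on SC and 9.52, 9.56, 9.57 and 9.79 on CM. The levels step down from FC to ST to HT, with no overlap between FC and ST on CM and a small one on SC, where ST mouse 54 reached above FC mouse 58. AK040646 was higher in FC by 1.30 on SC (SE 0.173, adjusted p = 3.27e-05) and by 1.29 on CM (SE 0.110, adjusted p = 9.47e-09), and lower in HT, by -1.23 on SC (SE 0.155, adjusted p = 4.27e-06) and -1.42 on CM (SE 0.108, adjusted p = 9.09e-10). With the slide as a term the HT difference on SC was -1.12 with an adjusted p of 0.0120, which misses the threshold, and that on CM -1.32 (adjusted p = 0.000196). R3hdm1 differed in HT by -1.05 and -1.24 and in FC by 1.08 and 1.35.

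AK043982 was the one of the 4 that came from a cortex library, a neonate one, and its probe holds AATAAA near its end. It is named after its values were seen. Its log2 levels were 7.11, 6.60, 7.15 and 7.52 in SC FC and 7.20, 6.83 and 7.14 in CM FC. ST arrays measured 7.31, 7.02, 6.94 and 7.17 on SC and 7.45, 7.62, 7.38 and 7.42 on CM. HT arrays measured 5.94, 6.23, 5.76 and 5.91 on SC and 5.49, 5.53, 5.75 and 5.66 on CM. The HT arrays all lie below the others, with the gap wider on CM. The HT differences were -1.16 on SC (adjusted p = 2.81e-06) and -1.63 on CM (adjusted p = 2.9e-11), and AK043982, AK138907 and AK042354 are the 3 whose HT calls on both diets remained with the slide as a term. AK043982 has no named neighbour within 50 kb.

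**Figure D1:**
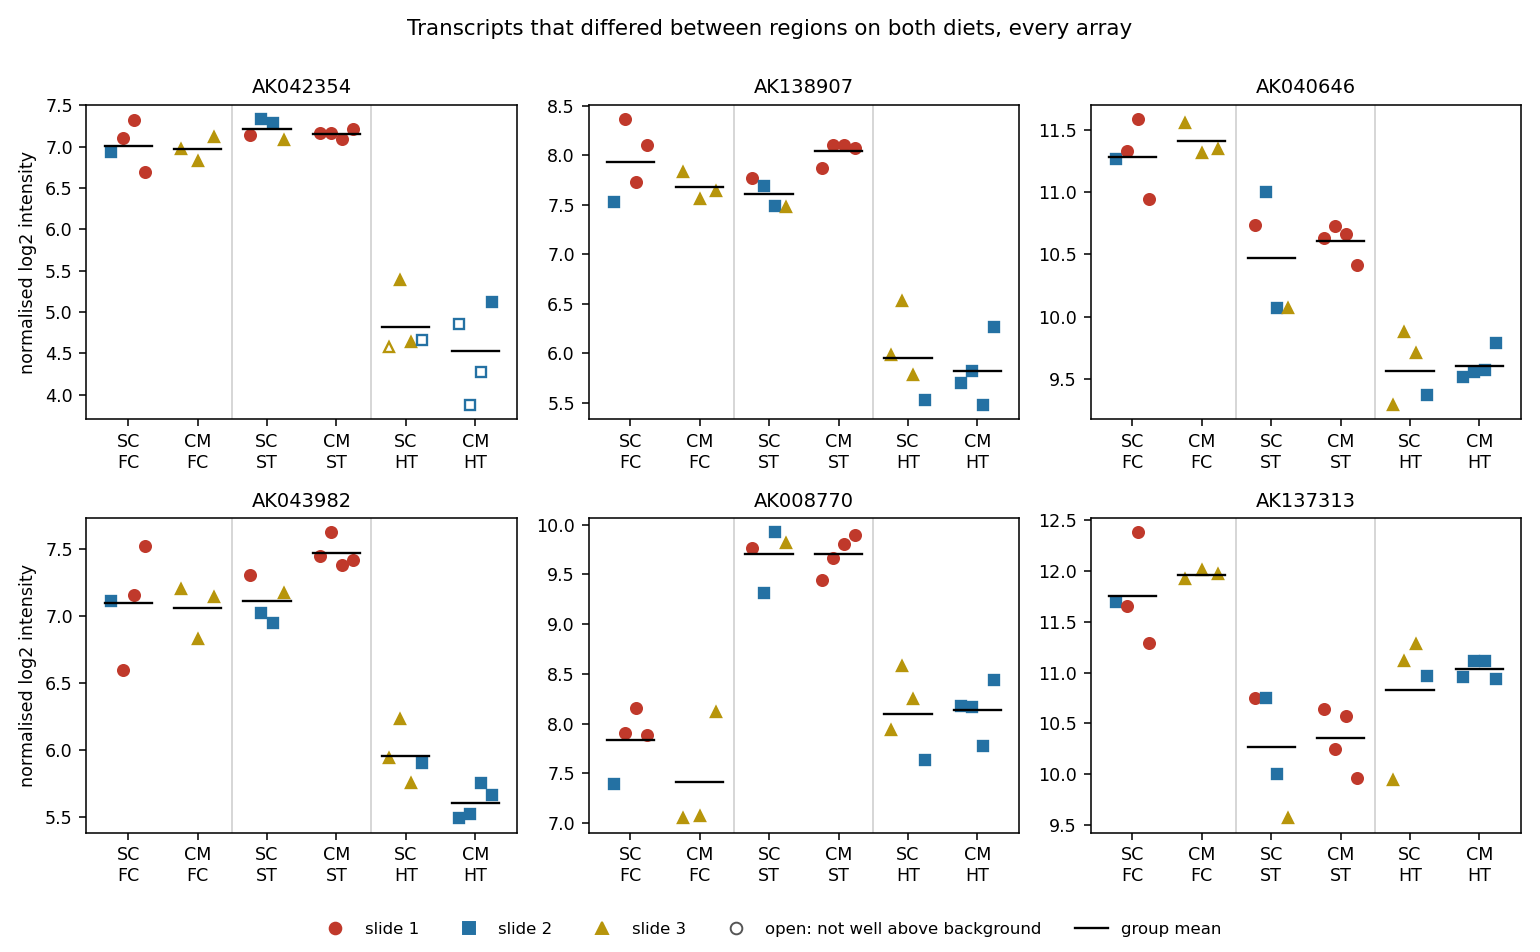
Normalised log2 intensity of 6 unnamed transcripts on each of the 23 arrays, by diet (SC, CM) and region (FC, ST, HT), with the slide shown by colour and shape, open symbols for arrays not well above background and a bar at each group's mean. AK042354, AK138907, AK040646 and AK043982 are lowest in HT on both diets, AK008770 is highest in ST and AK137313 highest in FC.

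In FC, 3 of the 168 (1.79%) were higher than the mean of the other regions on both diets, beside 1.6% of all rows: AK042354, AK137313 and AK040646. AK042354 was not higher in FC than in ST (group means 7.01 and 7.21 on SC, 6.97 and 7.16 on CM), and its FC and ST calls go with its low HT level. None was lower on both (background 0.901%), while the numbers at an unadjusted limma p under 0.05 were 74 on SC and 109 on CM in either direction. Without SC FC mouse 56 the count fell to 1, and without SC FC mouse 54, the array with olfactory bulb markers, to 2. None of the 3 remained called on both diets with the slide as a term.

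AK137313, a hypothetical protein from a cerebellum library, was the one of these 3 whose FC arrays lay above all others on both diets. Its log2 levels were 11.69, 11.65, 12.38 and 11.29 in SC FC and 11.92, 12.01 and 11.97 in CM FC. The ST arrays gave 10.75, 10.75, 10 and 9.57 on SC and 10.64, 10.24, 10.57 and 9.96 on CM. The HT arrays gave 9.94, 11.12, 11.28 and 10.97 on SC and 10.96, 11.12, 11.11 and 10.94 on CM. SC FC mouse 58 lies just above the highest SC HT array, and SC FC mouse 56 is the highest of all. AK137313 was higher in FC by 1.23 on SC (SE 0.267, adjusted p = 0.00173) and by 1.23 on CM (SE 0.169, adjusted p = 3.57e-06). Without SC FC mouse 56 the SC difference was 0.84 (adjusted p = 0.0304) and the call was lost, and with the slide as a term the differences were 0.82 (adjusted p = 0.181) on SC and 1.82 (adjusted p = 0.0274) on CM. Within slide 1 its SC FC mean exceeded the SC ST array by 1.02, and within slide 2 the SC FC array exceeded the SC ST mean by 1.32 and the SC HT array by 0.72.

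In ST, 2 of the 168 (1.19%) were higher on both diets, AK042354 and AK008770, beside 1.11% of all rows, and none was lower on both (background 0.277%), with 30 on SC and 113 on CM at an unadjusted limma p under 0.05 in either direction. The count was 1 without SC ST mouse 52, the array with hypothalamic markers, and 0 without SC ST mouse 56. It was 2 without CM ST mouse 58, the array with choroid plexus markers. Neither of the 2 remained called on both diets with the slide as a term, where the 1 call was AK090145.

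AK008770, a hypothetical protein from a stomach library, lies 24017 bases from the probe of Ryr3 on the same strand, the gene of a ryanodine receptor that releases calcium from internal stores. In ST, its log2 levels were 9.76, 9.32, 9.92 and 9.82 on SC and 9.44, 9.66, 9.81 and 9.90 on CM. In FC, they were 7.39, 7.90, 8.16 and 7.89 on SC and 7.05, 7.08 and 8.12 on CM. In HT, they were 7.94, 8.58, 8.25 and 7.63 on SC and 8.17, 8.17, 7.77 and 8.44 on CM. All ST arrays are high and none overlaps FC or HT. The 4 FC arrays near 8 are those with more of the striatal markers, and the 3 lower ones those with less. Their part in the result was not tested. AK008770 was higher in ST by 1.69 on SC (SE 0.309, adjusted p = 0.00122) and by 1.96 on CM (SE 0.194, adjusted p = 7.57e-08), a fold of 3.22 on SC. Without SC ST mouse 56 the SC difference was 1.38 (adjusted p = 0.0179), which ended the call, and with the slide as a term the differences were 1.85 (adjusted p = 0.000477) and 1.78 (adjusted p = 0.0151). Within slides on SC, FC lay below ST by 1.78 on slide 1 and 2.23 on slide 2, and HT lay below ST by 1.99 on slide 2 and 1.56 on slide 3. Ryr3 was higher in ST by 1.27 and 1.78.

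**Figure D2:**
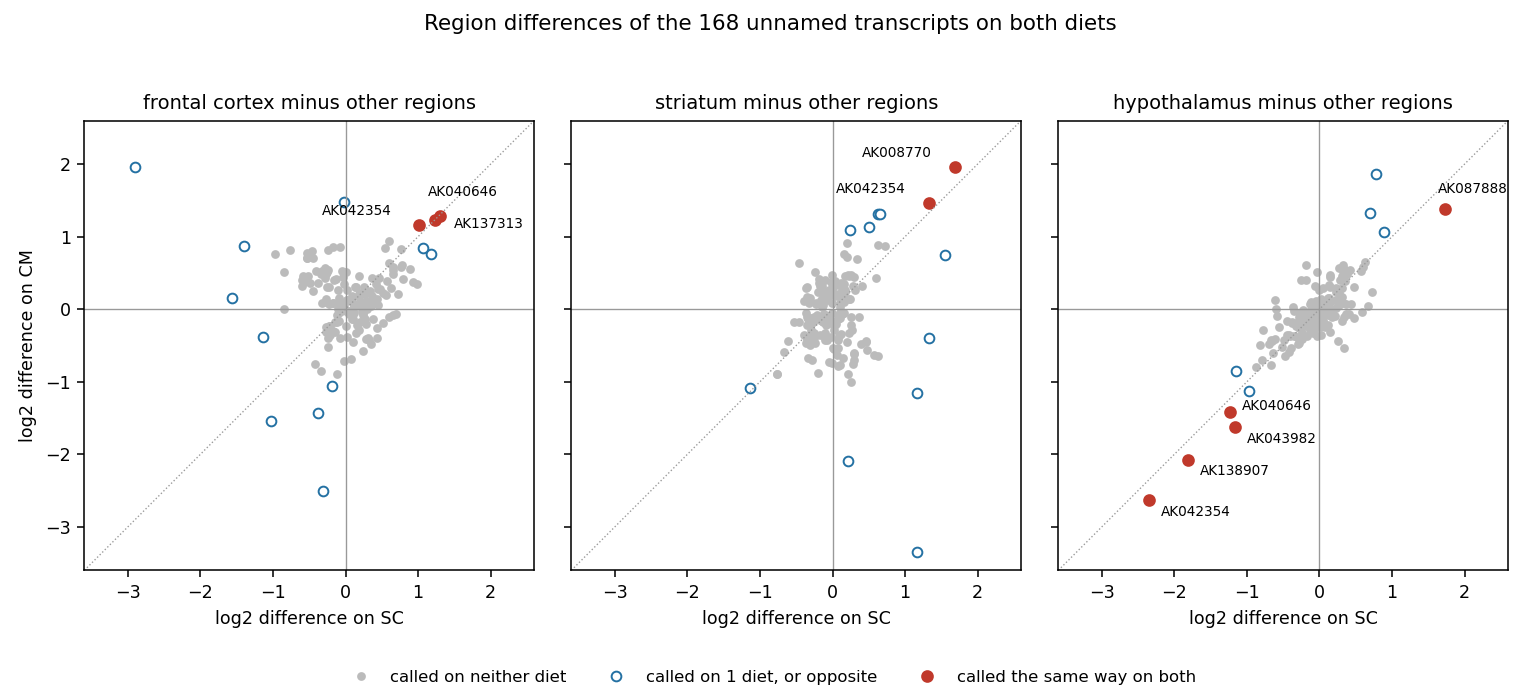
Log2 difference of each of the 168 unnamed transcripts between one region and the mean of the other 2, on SC (horizontal) and on CM (vertical), from the same fit, with the dotted line at equal values. Filled red points were called in the same direction on both diets, open points on 1 diet or in opposite directions. In HT the 4 transcripts called lower lie near the dotted line, while in FC AK087888 lies at -2.91 on SC and 1.95 on CM.

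Taken one diet at a time, on SC 5 (2.98%) were higher in FC and 4 (2.38%) lower, beside 2.07% and 2.15% of all rows. On SC, 4 (2.38%) were higher in ST and none lower, beside 1.19% and 0.35%, with 30 at an unadjusted limma p under 0.05. On SC, 1 (0.595%) was higher in HT and 5 (2.98%) lower, beside 2.46% and 3.12%. On CM, 5 were higher and 4 lower in FC, beside 3.41% and 3.73% of all rows. On CM, 6 (3.57%) were higher and 4 lower in ST, beside 3.04% and 3.19%, and 4 were higher and 5 lower in HT, beside 3.42% and 3.68%. With the slide as a term there were 3 FC calls on SC, of which AK040829 and AK040646 had been called without it, and 1 FC call and 3 ST calls on CM, none of which had been. Without SC FC mouse 56 there were 5 FC calls on SC in all, and without SC ST mouse 56 there was 1 ST call.

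Several transcripts called on 1 diet had a level that set 1 region apart on both. They are named here after their values were seen. AK090145, from an embryo brain library, had ST log2 levels of 6.91, 7.39, 7.91 and 8.68 on SC and 6.90 to 7.17 on CM, above all its FC arrays (5.82 to 6.43) and HT arrays (6.22 to 6.60), with calls on SC for higher ST (1.55, adjusted p = 1.49e-05) and lower FC. AK076616 was well above background on all 8 HT arrays, at 5.20 to 6.09, and on 5 of the 15 others, whose highest value was 5.12, and it was called in HT on CM (at least 2.50-fold higher). AK089904 had HT log2 levels of 9.77 to 10.25 and others of 10.56 to 11.48, and was called in HT on CM (-1.13, adjusted p = 5.25e-10). AK076616 and AK089904 kept their HT calls on CM with the slide as a term, and AK090145 its ST call on SC.

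Between diets, most calls fell in FC, among the unnamed transcripts as among all rows. In FC, 6 of the 168 (3.57%) were higher on CM than on SC, beside 2.66% of all rows, and 1 (0.595%), AK039779, was lower, beside 0.28%. The 6 are AK087888, AK129341, AK082053, AK158358, AK034606 and AK156275. In ST, 2 (1.19%) were lower on CM, AK087888 and AK082053, beside 0.599%, and none was higher (background 0.00319%), with 53 at an unadjusted limma p under 0.05 in either direction. In HT, where a count needs a limma adjusted p under 0.05 and 1.5-fold, none was higher or lower, beside 0.0127% and 0.166% of all rows, while 23 (13.7%) had an unadjusted p under 0.05, as did 13.2% of all rows. AK043818 was called lower in HT in the fit restricted to spots well above background. Without SC FC mouse 54, CM FC mouse 56 or CM FC mouse 58, each in turn, there were 4 calls in FC, and the ST count ran from 0, without SC mouse 58 or CM mouse 54, to 5 without SC mouse 54, and was 1 without CM ST mouse 58. Leaving out SC HT mouse 58 gave 1 call in HT. Without array weights limma called AK158358 alone in FC (1.06, adjusted p = 0.00586) and none in ST, with AK087888 at 3.01 in FC (adjusted p = 0.0124).

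When the slide entered the fit as a fixed term, limma called none of the 168, and none of the 31395 rows, in FC, ST or HT, and the members at an unadjusted p under 0.05 were 9, 9 and 3, beside 2219, 1408 and 845 of the 31395. Of the 6 transcripts higher in FC on CM, 4 (AK087888, AK082053, AK158358 and AK034606) were lower on all slide 1 arrays than on any other array, as were 502 of the 834 rows (60.2%) called higher there. A call in FC favours such rows, since 3 of the 4 SC FC arrays are on slide 1. In FC, the diet cannot be told apart from the slide within any slide, since none holds both groups.

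AK087888, from an ovary library, with a product like a hypothetical open reading frame, had the largest difference. Its log2 levels in FC were 10.47, 7.13, 7.34 and 7.03 on SC and 10.99, 11.11 and 10.92 on CM. In ST, they were 7.47, 10.27, 11.00 and 10.49 on SC and 7.78, 7.11, 7.47 and 7.53 on CM. In HT, they were 9.67, 10.87, 10.98 and 10.75 on SC and 10.35, 10.81, 10.78 and 10.41 on CM. The levels form a low band, 7.03 to 7.78, that holds the 8 slide 1 arrays of both diets and of FC and ST, and a high band, 9.67 to 11.11, that holds the 15 arrays of slides 2 and 3. AK087888 was higher on CM in FC by 3.44 (SE 0.443, adjusted p = 4.13e-05) and lower in ST, by -2.81 (SE 0.489, adjusted p = 0.00457). With the slide as a term the FC difference was 0.72 (adjusted p = 0.854), and within slide 1 the 4 CM ST arrays exceeded the SC ST array by 0.000189, while within slide 2 the HT difference between the diets was -0.16. Its region calls follow the same bands: lower in FC on SC (-2.91), higher in FC on CM (1.95), lower in ST on CM (-3.34) and higher in HT on both (1.74 and 1.39).

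AK158358, from an inner ear library, shows the same bands on a smaller scale. Its log2 levels in FC were 9.85, 9.34, 9.13 and 9.06 on SC and 10.39, 10.41 and 10.41 on CM. The ST arrays gave 9.16, 10.13, 10.28 and 9.97 on SC and 9.29, 9.15, 9.18 and 9.34 on CM. The HT arrays gave 10.07, 10.52, 10.48 and 10.23 on SC and 9.89, 10.08, 10.08 and 10.09 on CM. The 8 slide 1 arrays are the 8 lowest, and the CM FC arrays agree closely and lie above all SC FC arrays. It was higher on CM in FC by 1.16 (SE 0.137, adjusted p = 3.14e-05), and by 0.44 with the slide as a term (adjusted p = 0.685). Usp38, a deubiquitinase gene whose probe lies 43263 bases away on the same strand, differed by -0.17 in FC and was not called.

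AK129341 has no library, and a probe with an NM identifier that the array also names AK129341 lies 368 bases away on the same strand. For this transcript, then, the array uses the identifier as the gene name of an NM row as well. Its log2 levels in FC were 5.32, 3.76, 4.52 and 3.42 on SC and 5.44, 5.46 and 5.76 on CM. ST arrays measured 5.51, 5.82, 6.35 and 5.94 on SC and 5.18, 5.07, 5.26 and 5.09 on CM. HT arrays measured 5.10, 5.24, 5.49 and 5.28 on SC and 6.0, 5.44, 5.41 and 5.75 on CM. The 3 lowest arrays of all are SC FC on slide 1, which are not well above background, and SC FC mouse 52, on slide 2, is close to the CM FC arrays. It was at least 1.89-fold higher on CM in FC (log2 difference 1.39, SE 0.232, adjusted p = 0.000263), and 0.58 with the slide as a term (adjusted p = 0.872). On SC, AK129341 was also called between regions, at least 1.94-fold lower in FC and at least 1.93-fold higher in ST. Neither region call remained with the slide as a term. The row 368 bases away, which bears the same name, differed by 0.05 between diets in FC, beside 1.39 here. The probes of this name thus gave unlike values, and why was not tested.

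AK082053, from an embryo head library, was near background on many arrays. Its log2 levels in FC were 4.57, 4.29, 3.16 and 4.31 on SC and 5.15, 5.13 and 5.05 on CM. In ST, they were 3.89, 4.49, 6.69 and 5.21 on SC and 3.68, 3.84, 3.76 and 3.87 on CM. In HT, they were 5.02, 5.01, 5.12 and 4.55 on SC and 4.83, 4.58, 4.71 and 4.93 on CM. None of the SC FC and CM ST arrays was well above background, and SC ST mouse 56 stands far above the rest. It was at least 1.68-fold higher on CM in FC (log2 difference 1.22, SE 0.327, adjusted p = 0.00872), a call lost without any 1 of 6 of the 7 FC arrays, where the difference ran from 0.82 to 1.33, and with the slide as a term, where it was 0.14 (adjusted p = 0.993). No fold is given for ST.

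**Figure D3:**
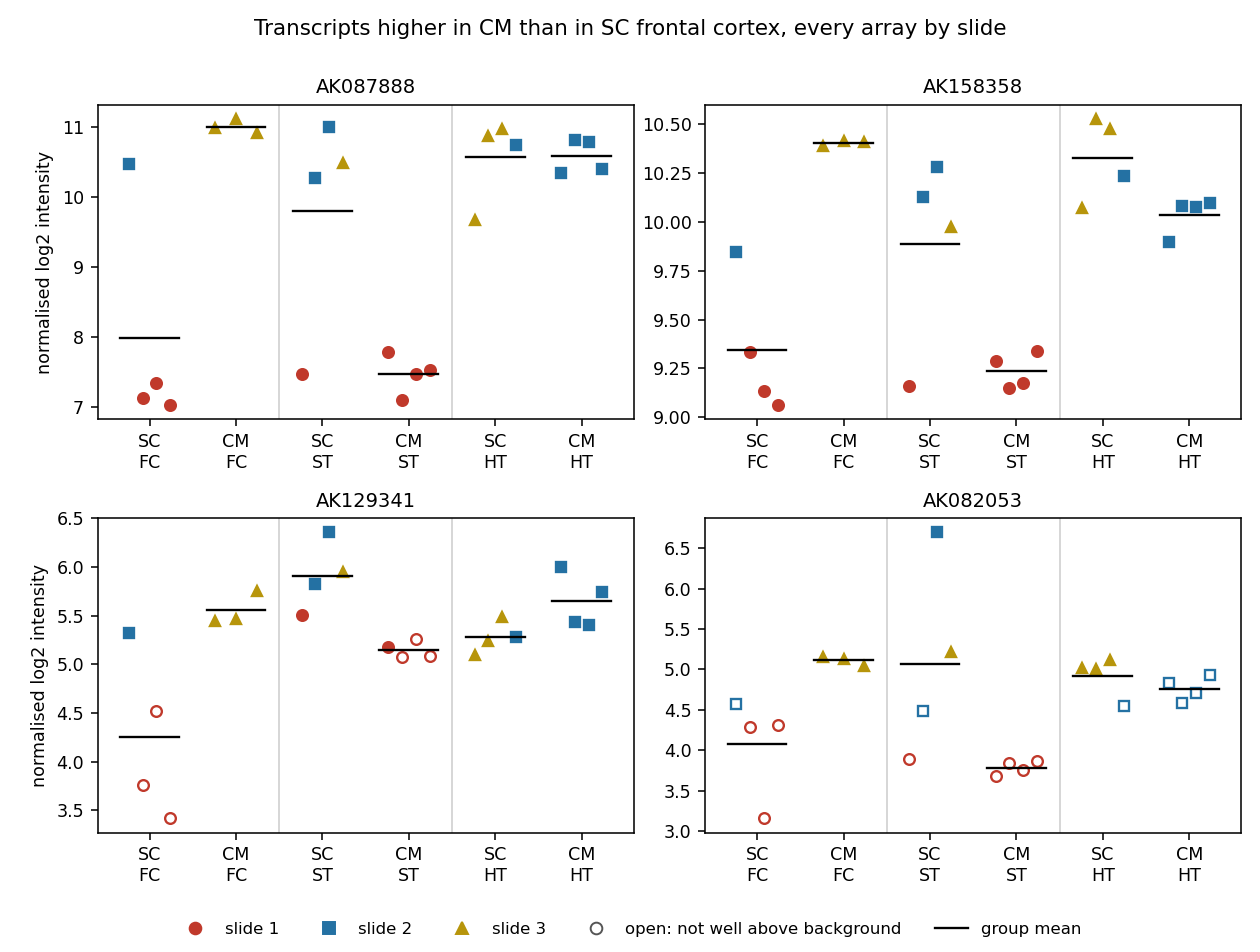
Normalised log2 intensity of 4 unnamed transcripts on each of the 23 arrays by diet and region, with slides by colour and shape. Open symbols mark arrays not well above background, and a bar marks each group's mean. The 4 had the largest fitted rise on CM among those called in FC. For AK129341 and AK082053, SC FC arrays were not well above background, so the fitted rise gives no exact size or rank. For AK087888 the 8 slide 1 arrays lie between 7.03 and 7.78 and the other 15 between 9.67 and 11.11, whatever the diet or region.

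AK039779, from a spinal cord library, is the transcript that fell in FC on CM, and it is described after its values were seen. Its log2 levels in FC were 6.52, 7.71, 4.43 and 7.55 on SC and 4.44, 4.20 and 4.42 on CM. In ST, they ran from 4.68 to 7.04 on SC and from 5.57 to 6.81 on CM, and in HT from 6.51 to 7.22 and from 6.98 to 7.41. No CM FC array was well above background, and SC FC mouse 56 lay among them, so the diets overlap in FC. Ndst4, an enzyme gene of heparan sulfate synthesis, has its probe 6580 bases away on the same strand and was called lower in FC on CM too (-1.74). On CM, AK039779 was at least 5.44-fold lower in FC than in the other regions and at least 3.56-fold higher in HT, with Ndst4 at -1.73 and 1.43, and AK039779 was called in neither with the slide as a term.

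The difference in diet effect between regions was itself tested for the 7 transcripts called in a diet comparison. They were chosen by a call in FC on the same arrays, so a larger effect in FC is expected of them and these tests are not independent of that choice. All 7 differed between FC and ST and between FC and HT at a limma adjusted p under 0.05, and none between ST and HT. For AK087888 the FC effect exceeded the ST effect by 6.25 (adjusted p = 1.13e-05), and for AK158358 by 2.0 (adjusted p = 1.13e-05). These differences were 0.70 and 0.49 with the slide as a term, with an adjusted p of 1 for both.

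A named probe lay within 50 kb of 101 of the 168, on the same strand for 60, at a median of 11442 bases for the 101. Over the 9 comparisons, those 101 transcripts were called 29 times, and in 17 of the 29 the nearest named gene was called in the same direction. The neighbours were called in 52 of all 909 pairs of a transcript and a comparison (5.72%). In the 6 region comparisons the neighbour went the same way for 16 of 25 calls, with 8.09% of pairs called, and in the 3 diet comparisons for 1 of 4, with 0.99% of pairs called. The 1 is AK039779 with Ndst4. Within 10 kb the count was 10 of 15, and within 200 kb 21 of 45. The transcript and its neighbour were read from the same arrays, so these counts describe pairs and are not independent measurements.

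Some neighbours had region calls that match. AK045275 lies 126 bases from the probe of Sp9, a zinc finger factor of striatal neurons, on the opposite strand, and on CM both were higher in ST, AK045275 at least 2.42-fold and Sp9 by 1.70 in log2. The call of AK045275 was lost with the slide as a term, and on SC it was not called in ST (0.66, adjusted p = 0.272). Its highest level of all was 6.25, in SC FC mouse 54. AK045275 had log2 levels of 5.70, 5.77, 5.90 and 5.69 in CM ST, while 1 of the 7 CM arrays of FC and HT was well above background. AK008770 and Ryr3 were both lower in FC on CM (-1.54 and -1.72), in addition to their higher ST levels. In the other direction, AK090145 was higher in ST on SC where its neighbour Tmem130, 31792 bases away, had a log2 difference of -0.66, and Tmem130 was higher in HT (1.37). AK045275 and AK090145 were picked after their values were seen.

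**Figure D4:**
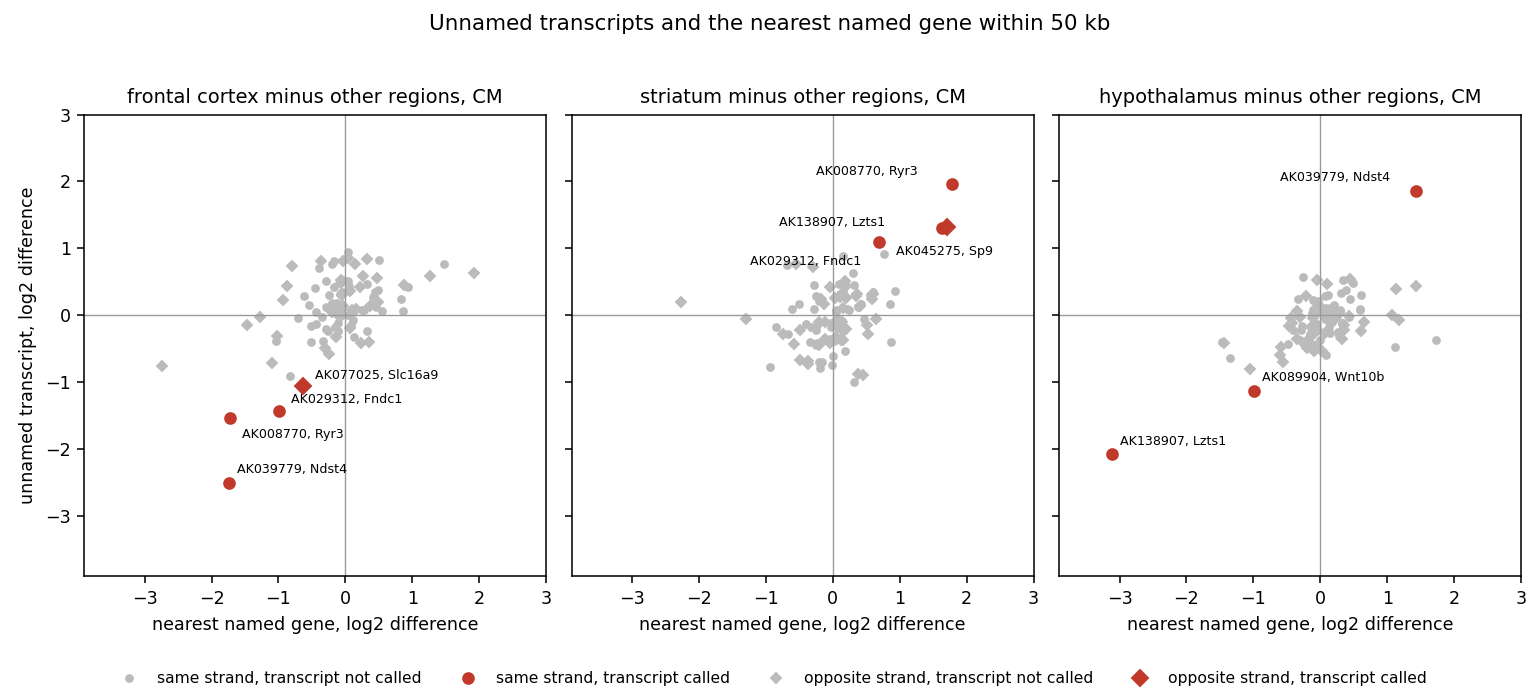
Log2 difference on CM of unnamed transcripts (vertical) and of the nearest named gene within 50 kb (horizontal), for each region against the mean of the other 2, with circles for pairs on the same strand, diamonds for pairs on opposite strands and red for transcripts that were called. AK138907 with Lzts1 (-2.08 and -3.11) lies at the lower left in HT. The pair of AK042354, the transcript with the lowest HT difference, is left out of the plot but not out of the counts in the text.

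As a list, the unnamed transcripts had medians near 0 between diets, with members going both ways. Between regions on CM, their medians lay further from those of all rows. No test of the list was made. In CM minus SC, their median log2 differences were 0.02 (FC), -0.03 (ST) and -0.01 (HT), beside -0.04, 0.03 and 0.01 over all rows. The median size of the difference, ignoring its sign, was 0.25, 0.22 and 0.12, beside 0.23, 0.18 and 0.10. Between regions, the medians on SC were 0.03 in FC, -0.01 in ST and -0.05 in HT, beside -0.01, -0.00 and 0.03 over all rows, and on CM 0.13, -0.10 and -0.08, beside -0.00, -0.01 and 0.02. The median sizes in FC, ST and HT were 0.27, 0.21 and 0.24 on SC, beside 0.25, 0.16 and 0.25 over all rows. On CM they were 0.31, 0.34 and 0.22, beside 0.28, 0.28 and 0.23. An unadjusted limma p under 0.05 was found for 44.6% of the 168 in the FC diet comparison and 31.5% in that of ST, beside 40% and 25.5% of all rows. In the region comparisons that share was 44%, 17.9% and 42.3% on SC for FC, ST and HT, beside 42.4%, 23.1% and 47.4%, and 64.9%, 67.3% and 51.2% on CM, beside 65.1%, 62.6% and 57.9%. Over all 9 comparisons 145 of the 168 were called in none and 23 in at least 1. No such count over all rows is given beside it, so these numbers are not compared with the array as a whole.

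Few of the clones came from the regions measured here, too few for a count of calls to say much. The 7 transcripts from cortex libraries had a median FC difference of 0.28 on SC and 0.08 on CM, and none was called higher in FC, as were 2.07% and 3.41% of all rows. The 3 from striatum libraries had a median ST difference of -0.04 on SC and -0.05 on CM, with none called higher, as were 1.19% and 3.04% of all rows, and the 1 from hypothalamus had an HT difference of -0.23 on SC and -0.01 on CM. Of the 113 from libraries not named for a part of the nervous system, among them heads, whole embryos and sense organs, 5 rose on CM in FC, where 2.66% of all rows did, and 4 were lower in HT on CM, as were 3.68% of all rows. The 4 products of mobile elements had a median diet difference of 0.44 in FC and -0.27 in ST, beside -0.04 and 0.03 over all rows, with none called.

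The probes of the 168 had a median GC content of 41.67%, beside 43.33% for all rows and 41.67% for those with an NM identifier. A run of at least 6 A occurred in 11 of them (6.55%), beside 3.12% of all rows, and a run of at least 6 T in 5 (2.98%), beside 3.04%. AATAAA occurred in 29 (17.3%), beside 12% of all rows and 13.8% of those with an NM identifier, and in 5 of the 23 that were called, among them AK129341 and AK043982. A match says that these letters lie in the probe and no more. Probes made almost only of A and G were 5 of the 168 (2.98%), beside 0.147% of all rows. Among the 23 that were called, 1 has such a probe, AK148702, called lower in HT on SC (-1.15, limma adjusted p = 0.000517). It was not called there with the slide as a term. On chromosome 8, AK039724, AK166824 and AK164389 lie in a row, 25899 and 76214 bases apart, and none of the 3 was called.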

How the data were processed

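The authors deposited scanner text files (median signal and median background, intensity per the file headers) and a log2 table. The table was rebuilt from the scanner files by normexp background correction, quantile normalisation, a filter on negative controls and averaging by identifier, and differs from the deposited one by at most 5e-09. limma fitted 6 group means with array weights and the mouse as random block (regions of 1 animal share its number in the labels), with adjustment over all 31395 rows. Thresholds are 2-fold and adjusted p under 0.01, or 1.5-fold and 0.05 for diet in HT. Transcripts were named by largest difference with no overlap of arrays, a rule fixed before these values but with earlier results on the series known; others are marked as chosen later. Other settings tried: slide as fixed or random block, no block, no weights, weights by REML, offset 50, processed signal, other filter, each array left out. Marker lists: cortex, striatum, thalamus, hypothalamus, choroid plexus, olfactory bulb, pituitary, red blood cells, oligodendrocytes. The scripts were tested on simulated data. R 4.3.3, limma 3.58.1, statmod 1.5.0, the R data.table package (1.17.8), Python 3.11.15, pandas 2.3.3, edlib 1.3.9.post1, matplotlib 3.10.9, Feature Extraction 10.7.3.1, mm9.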

Additional observations from a re-analysis of the deposited data

Results flagged for a closer look

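A test for a single outlying array within a group of 4 was made on 23 transcripts, 115 groups in all, at a 1 in 20 level, at which about 1 group in 20 is flagged by chance, and 5 were flagged. The gap to the nearest array, as a share of the group's range, was 0.898 for AK042354 in SC HT mouse 54, 0.852 for AK045275 in CM HT mouse 58, 0.909 for AK087888 in SC FC mouse 52, 0.864 for AK138907 in CM ST mouse 52 and 0.921 for AK158358 in CM HT mouse 52. SC FC mouse 52 is the one SC FC array on slide 2.

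The CM minus SC log2 difference differed between regions at a limma adjusted p under 0.05 in 14 of 21 tests on 7 transcripts. FC minus ST, it was 3.06 for AK082053, 1.75 for AK156275, -2.2 for AK039779, 2.3 for AK129341, 1.71 for AK034606, 2.0 for AK158358 and 6.25 for AK087888. FC minus HT, it was 1.47, 0.98, -2.18, 1.13, 1.45, 1.49 and 3.47 for the same 7 in that order. None of the 7 differed between ST and HT. The 7 were chosen by a diet call in FC on the same arrays. The values of AK082053, AK129341 and AK039779 take in groups not well above background, so they give no exact size.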

How the results depend on the processing

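With the slide as a fixed term, the calls between diets fell from 7 to 0 in FC and from 2 to 0 in ST, region calls fell from 9 to 3 in FC on SC, from 9 to 1 in FC on CM and from 10 to 3 in ST on CM, and those on both diets from 3 to 0 in FC, from 2 to 1 in ST (AK090145, not among the 2) and from 5 to 3 in HT. In that fit the diet effect in ST minus that in HT was 0.19 for AK087888 (-2.77 without the term) and 0.28 for AK158358 (-0.51 without it), a change of sign in both. The diet effects in FC minus those in ST or HT of AK087888, AK129341, AK082053 and AK158358 were then 0.35 to 0.89, none past an adjusted p of 0.05. The slide as a random block gave 1 call in FC and 0 in ST between diets, 5 in FC on SC and 1 in FC on both diets.

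Without array weights there was 1 call in FC and 0 in ST between diets, and with weights by REML 6 and 2, the call of AK082053 in FC being lost. With an offset of 50 there were 2 in FC and 1 in ST between diets, 3 in FC on SC and 3 in ST on CM, and AK082053 was not among the rows left. The scanner's processed signal scaled to its 75th percentile gave more calls: 15 in FC and 5 in ST between diets, 11 in HT on SC, 20 in FC and 23 in ST on CM, and 8 in HT on both diets. Filtering on spots well above background gave 1 diet call in HT, beside 0. At 1.5-fold and adjusted p under 0.05, 12, 7 and 13 were called on both diets in FC, ST and HT. The both-diet counts other than those at 1.5-fold and with the slide as a fixed term were added after the data were seen. With the processed signal, 75 of the 168 and 13242 of the 31395 rows had an unadjusted limma p under 0.05 between diets in FC. No share of all rows called in the same fit stands beside the counts in this section. They are therefore not compared with the array as a whole. The cause of these changes was not tested.

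Without the mouse as a block, that is without pairing regions of 1 animal, the counts were 7, 2 and 0 between diets in FC, ST and HT, 10, 5 and 6 between regions on SC, 9, 10 and 9 on CM, and 4, 3 and 5 on both diets.

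Leaving out each array in turn, the diet counts ran from 4 to 10 in FC, 0 to 5 in ST and 0 to 1 in HT. On SC they ran from 5 to 12 in FC, 1 to 6 in ST and 5 to 7 in HT, on CM from 8 to 10, 10 to 11 and 8 to 9, and on both diets from 1 to 4, 0 to 3 and 4 to 6. The log2 difference ran from 0.84 to 1.56 for AK137313 (FC on SC), 1.38 to 1.85 for AK008770 (ST on SC), -2.53 to -2.24 for AK042354, -2.0 to -1.69 for AK138907 and -1.45 to -1.10 for AK040646 (HT on SC). For diet in FC it ran from 3.23 to 3.87 for AK087888, 1.04 to 1.75 for AK129341, 0.82 to 1.53 for AK082053 and 1.13 to 1.24 for AK158358. The ranges of AK042354, AK129341 and AK082053 take in groups with arrays not well above background, so they give no exact size.

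Over the 9 comparisons, the nearest named gene was called the same way in 17 of 29 transcript calls within 50 kb. The count was 10 of 15 within 10 kb and 21 of 45 within 200 kb. A transcript called in several comparisons is counted once for each.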
